A study of Homo sapiens with 12 samples.

Results

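TP53INP2, SLA and LGALS12 are 3 of the 9529 genes measured in NOMO-1 cells, and they were chosen by their higher signal in ALKBH5 knockdown cells than in control cells. NOMO-1 is an established human acute myeloid leukemia line of monocytic character. The gap between knockdown and control is therefore the property that selected these genes, and it is given as a description with no test. Tests were kept for other comparisons. These were the fall of each gene in actinomycin D averaged over both arms, the difference between arms in the late fall, and the difference between the 2 knockdown lines. The falls from 0 h are not free of the choice. They start in part from the 0 h knockdown libraries, whose high values selected the genes.

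Messenger RNA was sequenced in 12 libraries, in 6 groups of 2. Control cells carried the hairpin named shNS, and knockdown cells carried 1 of 2 hairpins against ALKBH5. Both arms had received a lentivirus and puromycin selection, and were collected after 0, 8 or 12 h in actinomycin D, a compound that blocks RNA synthesis, so that the RNA remaining reports on decay. Each control group holds replicates 1 and 2, and each knockdown group holds 1 library of a line called D and 1 of a line called E. Each hairpin is thus represented by a single line, and the sources used here do not say which hairpin D or E carries. The sample titles, which speak of ALKBH5 hairpins and of actinomycin D, set the groups here, although the treatment protocol in the labels describes an FTO lentivirus and the drugs CS1 and CS2. The labels do not tie the libraries to separate cultures, so every p-value below measures the spread between these libraries only, which may be technical.

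ALKBH5 removes N6-methyladenosine (m6A), a methyl mark on internal adenosines of messenger RNA that other proteins read to change the stability and translation of the transcript. TP53INP2 encodes a protein that shuttles between nucleus and cytoplasm and binds ATG8-family proteins on forming autophagosomes. SLA encodes the Src-like adaptor protein, which has SH3 and SH2 domains but no kinase domain and works with the ubiquitin ligase CBL to lower surface receptors that signal through tyrosine kinases. LGALS12 encodes galectin-12, a sugar-binding protein known from the lipid droplets of fat cells and also expressed in myeloid cells.

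ALKBH5 itself followed the labels. The control libraries had a signal of 84.3 and 78.6 at 0 h, against 25.4 for line D and 21.2 for line E. At 8 h the mean was 34.0 ± 2.65 in control and 2.90 ± 1.96 in knockdown cells (mean ± SD, n = 2 in each), and at 12 h it was 8.26 ± 0.0605 and 0.805 ± 0.239. The arms did not overlap at any of the 3 times.

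m6A is most often found in a short context whose commonest form reads GGACU in RNA, and this motif was located in the transcripts because ALKBH5 acts on that mark. No methylation was measured in these libraries, so a match describes the sequence and does not show a methylated site. Windows are printed for TP53INP2 and LGALS12 only, and the copies in SLA are counted in the next paragraph. The windows below are reference sequence of GENCODE release 29 transcripts on build GRCh38, each 21 bases long, read 5′ to 3′ on the plus strand, with the letters GGACT in capitals. The first TP53INP2 site lies in coding exon 4, and the other 3 lie in the 3′ untranslated part of exon 5. The LGALS12 sites lie in coding exon 3, coding exon 6 and the 3′ untranslated part of exon 8.
TP53INP2 chr20:34709356-34709376: aggggcctGGACTcggtcccg
TP53INP2 chr20:34710946-34710966: gtagaagaGGACTgtgagacg
TP53INP2 chr20:34711491-34711511: ggagtccaGGACTcccactgt
TP53INP2 chr20:34713120-34713140: atgtgaggGGACTgaatgcag
LGALS12 chr11:63508779-63508799: tttcaggtGGACTtccagtgt
LGALS12 chr11:63511807-63511827: tagtacggGGACTggtcttgc
LGALS12 chr11:63516634-63516654: cagggcctGGACTgcactcac

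GGACT was searched on the transcript strand, and of 8752 coding genes with a matched transcript 90.7% held at least 1 copy. The TP53INP2 transcript is 4184 nt long, with 663 nt of coding sequence and 3132 nt of 3′ untranslated region, and its 4 copies come to 0.956 per kb. That is close to the median of all these genes, 0.943 per kb, and 50.8% of them had fewer per kb. The median number of copies was 3. The SLA transcript of 3451 nt held 6 copies, or 1.74 per kb, above 85.5% of genes, and the LGALS12 transcript of 1667 nt held 3 copies, or 1.80 per kb, above 86.8%. A second motif, ATTTA, the core of AU-rich elements that some decay factors bind, was present in the 3′ untranslated region of 66.1% of genes. TP53INP2 held 1 copy there in 3132 nt, SLA 3 in 1800 nt and LGALS12 3 in only 374 nt. The median gene held 1, and the median length of this region was 948 nt.

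TP53INP2 signal at 0 h was 9.09 and 9.84 in the control libraries, 31.4 in line D and, highest of the 4, 49.3 in line E. After 8 h in actinomycin D the same lines stood at 4.91, 4.75, 7.09 and 19.0, and after 12 h at 1.46, 1.60, 4.72 and 7.43. Every knockdown library was above both control libraries of its time, and line E was above line D at all 3 times. Separation of the arms goes with the choice of the genes, and how many of all genes showed it was not counted. Over the 6 groups the mean was highest in knockdown cells at 0 h, 40.4 ± 12.7, and lowest in control cells at 12 h, 1.53 ± 0.101. Between these ends neighbouring groups overlapped, since knockdown cells at 8 h (13.1 ± 8.43) spanned control cells at 0 h (9.46 ± 0.533), and knockdown cells at 12 h (6.07 ± 1.92) spanned control cells at 8 h (4.83 ± 0.113).

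SLA signal at 0 h was 15.7 and 17.0 in the control libraries, against 60.5 for line D and 44.8 for line E. By 8 h it had dropped to 1.72, 1.73, 3.73 and 4.76 in the same order, and by 12 h to 0.520, 0.565, 1.82 and 2.17. The arms were again apart at each time, which goes with the choice of the gene. The order of the knockdown lines changed, with line D higher at 0 h and line E higher at 8 and 12 h. In contrast with TP53INP2, knockdown cells at 8 h (4.24 ± 0.727) lay below control cells at 0 h (16.4 ± 0.956). Knockdown cells at 12 h, 1.99 ± 0.248, had come down to near the control level of 8 h, 1.73 ± 0.00642.

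LGALS12 signal at 0 h was 24.3 and 27.1 in the control libraries, with 103.2 for line D and 60.7 for line E. At 8 h the values were 6.21, 5.95, 16.4 and 12.7, and at 12 h they were 1.42, 1.39, 7.24 and 5.46. Knockdown libraries were above the control libraries at all 3 times, which again goes with the choice of the gene. Here line D was the higher knockdown line throughout. Control cells at 8 h (6.08 ± 0.181) and knockdown cells at 12 h (6.35 ± 1.25) could not be separated by their spread.

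**Figure D1:**
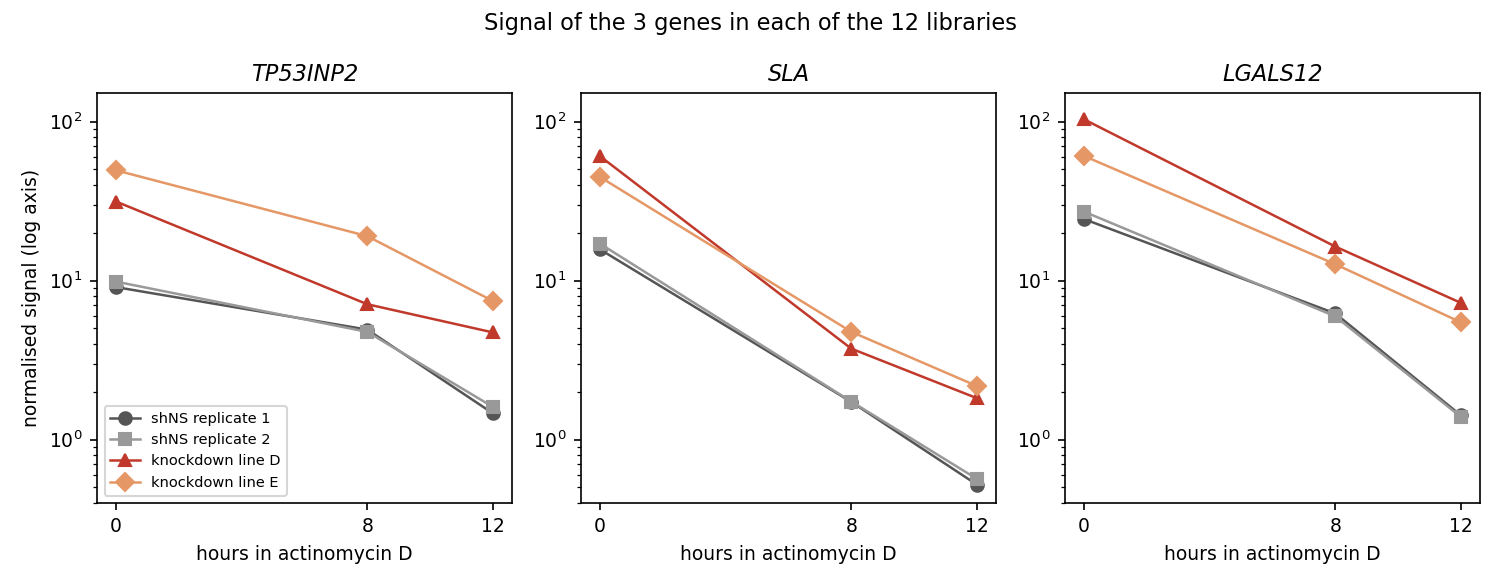
Normalised signal of TP53INP2, SLA and LGALS12 on a log axis against hours in actinomycin D, with 1 line for each shNS replicate and each knockdown line. Knockdown libraries lie above control libraries at every time, which goes with the choice of the genes. SLA falls most steeply between 0 and 8 h, in control cells from between 15.7 and 17.0 to between 1.72 and 1.73.

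As ratios of group means, knockdown over control was 4.26 for TP53INP2, 3.22 for SLA and 3.19 for LGALS12 at 0 h, where the median gene stood at 1.19. At 8 h the ratios were 2.70, 2.45 and 2.39 against a median of 0.840. At 12 h they were 3.96, 3.67 and 4.52 against a median of 1.08. All 3 genes thus had their smallest ratio at 8 h, the time at which the median gene was also lowest. The values that selected the genes are differences of log2(signal + 1) at 0 h of 1.95, 1.61 and 1.59, which rank 6, 10 and 11 among the 9529 genes, and differences across times of 1.51, 1.17 and 1.44, which rank 6, 24 and 8. In this scale 1 is added to the signal before the logarithm, so changes of low signals are understated, most of all for SLA at 12 h.

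The ratio at 8 h for TP53INP2 rested largely on 1 line. Line D was 1.47-fold and line E 3.93-fold above the control mean at that time, compared with 3.32-fold and 5.21-fold at 0 h and 3.08-fold and 4.85-fold at 12 h. For SLA the lines lay closer together, at 3.70-fold and 2.74-fold at 0 h, 2.16-fold and 2.75-fold at 8 h, and 3.35-fold and 4.00-fold at 12 h. For LGALS12 line D gave 4.01-fold, 2.69-fold and 5.16-fold, and line E gave 2.36-fold, 2.08-fold and 3.89-fold.

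**Figure D2:**
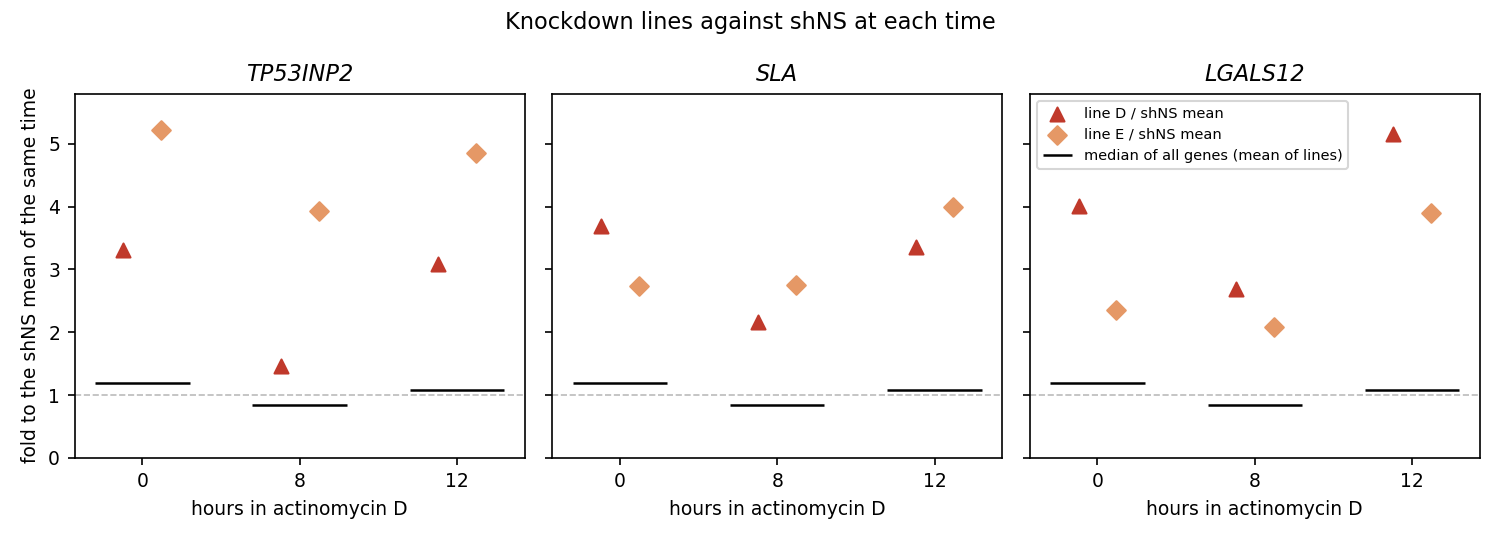
Signal of knockdown line D (triangles) and line E (diamonds) divided by the shNS mean of the same time, with the median of all genes as a black bar and a ratio of 1 dashed. Line E is the higher line for TP53INP2 and line D for LGALS12 at all 3 times, whereas the order for SLA differs between 0 h and the later times.

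Whether the 2 knockdown lines differed was tested with time as a factor, and this difference is independent of their common distance from control. TP53INP2 had the lower level in line D, by a log2 difference of -0.83 (SE 0.18, 95% interval -1.20 to -0.47, limma with Benjamini-Hochberg adjusted p = 7.91e-05). LGALS12 was higher in line D by 0.48 (SE 0.19, 95% interval 0.12 to 0.85, limma adjusted p = 0.0340). For SLA the difference was -0.01 (SE 0.18, 95% interval -0.36 to 0.34, limma adjusted p = 0.978), an interval that still allows moderate differences in either direction. Among all genes 14.2% were called higher and 14.9% lower in line D, so differences between the lines were common. Each side of this test is 1 line at 3 times, and a line cannot be told apart from its hairpin. In this fit limma took the spread from the trend over all genes and not from each gene itself. Without the trend the SE was 0.18 for each of the 3 genes. The p-values therefore do not reflect how steady the gap of 1 gene was. For TP53INP2 the ratio of line D to line E was 0.636, 0.373 and 0.635 at 0, 8 and 12 h. The call for LGALS12 was lost when any 1 of 8 of the 12 libraries was left out, with values from 0.34 to 0.63 and adjusted p up to 0.212, whereas TP53INP2 remained called in each of the 12 repeats, with values from -1.05 to -0.55.

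The fall in actinomycin D was tested on the mean of both arms. Its 0 h side includes the knockdown libraries that selected the genes, and their spread was wider than in control. At 0 h the SD in knockdown and control cells was 11.1 and 0.956 for SLA, 30.0 and 1.95 for LGALS12, and 12.7 and 0.533 for TP53INP2. The falls from 0 h may therefore be overstated. From 0 to 8 h SLA fell by 3.01 log2 units (limma, SE 0.14, adjusted p = 2.18e-09), LGALS12 fell by 2.15 (SE 0.18, adjusted p = 1.25e-07) and TP53INP2 fell by 1.25 (SE 0.25, adjusted p = 0.000375). The median gene changed by -1.40, and 96.0% of genes were called lower, so a call on its own does not set these genes apart. SLA stood near the extreme, with 2.38% of genes falling further, while 17.1% fell further than LGALS12 and 58.4% further than TP53INP2. From 0 to 12 h the changes were -3.82 for SLA (adjusted p = 6.96e-11), -3.47 for LGALS12 (adjusted p = 3.94e-10) and -2.29 for TP53INP2 (adjusted p = 8.83e-07) in the same limma model, with a median of -2.68 and 99.8% of genes called lower.

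Between 8 and 12 h the order of the genes was different. LGALS12 changed by -1.32 (limma adjusted p = 1.48e-05), TP53INP2 by -1.04 (adjusted p = 0.00146) and SLA by -0.81 (adjusted p = 9.41e-05), against a median of -1.21 and 99.2% of genes called lower. By then SLA was at a signal where adding 1 compresses the scale, and without that addition it kept as large a share as the median gene from 8 to 12 h in both control libraries and line D, with ratios of 1.01, 0.990 and 1.01, and a larger share in line E, 1.39. The steep part of the SLA fall therefore lay in the first 8 h.

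These falls depend on the scale of the deposited signal, in which the gene totals drop with time while the spike-in controls stay level. The signal appears to be scaled to those controls, so their level is no separate check on the scale. After median-of-ratios scaling, which sets the typical gene to no change, SLA still fell from 0 to 8 h by 1.51 (SE 0.12, limma adjusted p = 1.73e-05) and LGALS12 fell by 0.63 (SE 0.18, adjusted p = 0.0145), where 29.4% of genes were called higher and 30.5% lower. TP53INP2 gave 0.18 (adjusted p = 0.572) in the same limma fit. From 0 to 12 h the values were -1.39 for SLA (adjusted p = 1.96e-05), -0.72 for LGALS12 (adjusted p = 0.00658) and 0.38 for TP53INP2 (adjusted p = 0.235) with limma, against 30.5% of genes called higher and 32.5% lower. From 8 to 12 h none of the 3 genes was called on this scale, where 1.46% of genes were called higher and 0.934% lower. Relative to the typical transcript, SLA and LGALS12 were lost faster up to 12 h, and no difference passed the test for TP53INP2.

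As a share of the 0 h signal, SLA retained 11.0% and 10.2% at 8 h in the control libraries, 6.16% in D and 10.6% in E, where the median gene retained 42.2%, 41.1%, 23.9% and 33.6%. LGALS12 retained 25.5%, 21.9%, 15.9% and 20.9%, and TP53INP2 retained 54.0%, 48.3%, 22.6% and 38.5%. In line D every one of the 3 genes retained the least, as did the median gene. Divided by the median gene of the same line, the 8 h share of SLA was between 0.248 and 0.316 in all 4 lines, that of LGALS12 between 0.534 and 0.664, and that of TP53INP2 between 0.947 and 1.28.

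At 12 h SLA retained 3.32% and 3.32% in the control libraries, 3.01% in D and 4.85% in E. LGALS12 retained 5.83%, 5.12%, 7.01% and 8.99%, and TP53INP2 retained 16.1%, 16.3%, 15.0% and 15.1%, with the median gene between 10.7% and 12.9%. The TP53INP2 share differed little between arms. For LGALS12 both knockdown lines lay above both control libraries, and how many of all genes did so was not counted. These shares are divided by the 0 h values that selected the genes, so their difference between arms was not tested.

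**Figure D3:**
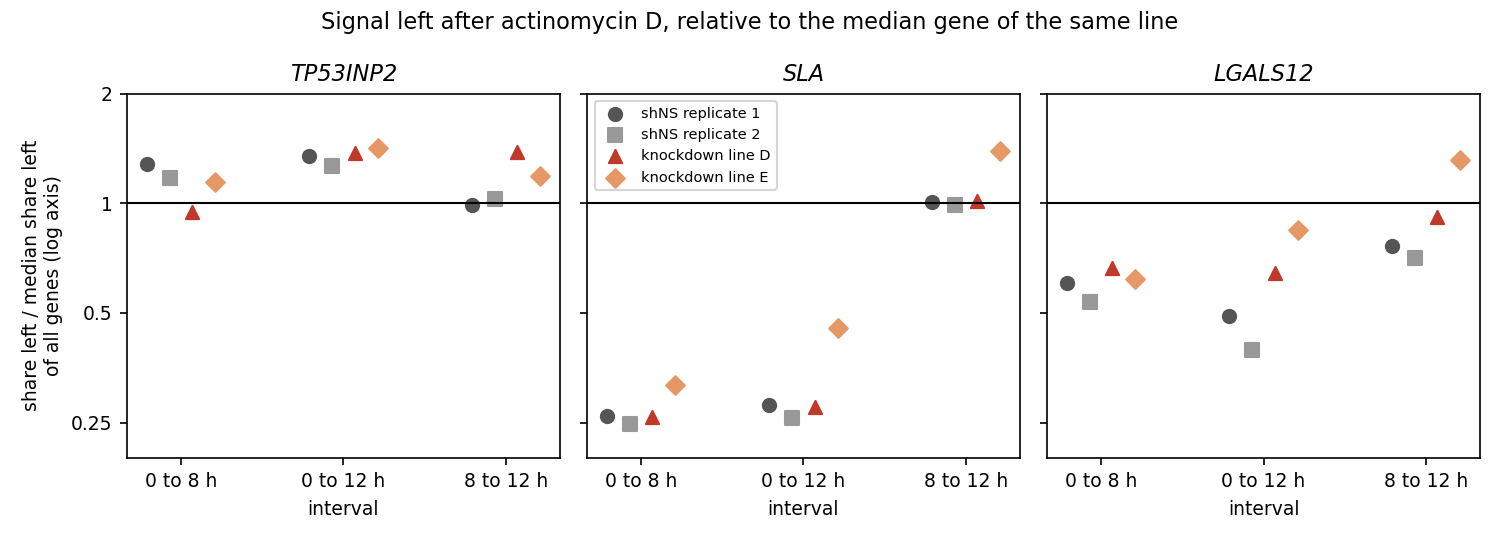
Share of signal left over an interval divided by the median share of all genes in the same line, on a log axis, for 2 shNS replicates (grey) and knockdown lines D and E (colours). SLA lies between 0.248 and 0.316 over the first 8 h and at 0.990 to 1.39 over the last 4, and TP53INP2 lies between 0.947 and 1.41.

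The late fall could be compared between arms without the 0 h libraries. Knockdown minus control in the change from 8 to 12 h was 0.33 for TP53INP2 (95% interval -0.76 to 1.42, limma adjusted p = 0.816), 0.02 for SLA (-0.58 to 0.62, adjusted p = 0.974) and 0.48 for LGALS12 (-0.29 to 1.25, adjusted p = 0.803). The median gene stood at 0.29. The addition of 1 to the signal weighs on these values, since with 0.1 added they were 0.64 for TP53INP2, 0.46 for SLA and 0.86 for LGALS12, each with a limma adjusted p of 0.769, and the median gene was at 0.35. As shares of the 8 h signal left at 12 h, SLA had 30.2% and 32.6% in the control libraries and 48.8% and 45.6% in lines D and E. LGALS12 had 22.9% and 23.3% against 44.2% and 43.1%, and TP53INP2 had 29.7% and 33.7% against 66.5% and 39.1%. The median gene had 30.0%, 32.9%, 48.1% and 32.9%, so it too was raised in line D. How many of all genes had both knockdown lines above both control libraries was not counted. The TP53INP2 difference rested on the 8 h knockdown libraries, at -0.32 without line D and 0.98 without line E. None of the 3 genes passed the threshold, and of all 9529 genes 0% were called by limma, with 123 at an unadjusted p under 0.05. Without the mean-variance trend limma gave 0 calls and 124 such genes, and after median-of-ratios scaling 0 calls and 192. With the line as a block there were 3 calls and 1068 such genes, and the 3 genes described here were not among the calls. The intervals include changes of more than 1 log2 unit for TP53INP2 and LGALS12, so these libraries do not show that the arms decayed alike.

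With the time course removed, by taking from each log2 value the mean over the 4 libraries of the same time, SLA followed LGALS12 with a Pearson r of 0.944 and TP53INP2 with 0.921 over the 12 libraries, and TP53INP2 followed LGALS12 with 0.813. The members were all chosen for the same contrast, so a high r among them is built in. The lower value for TP53INP2 and LGALS12 goes with their opposite order of lines D and E. The median r of all genes was 0.155 with TP53INP2, 0.160 with SLA and 0.124 with LGALS12. Many other genes were closer to each member than the members were to each other. SLA ranked 155 and LGALS12 696 for TP53INP2. LGALS12 ranked 92 and TP53INP2 207 for SLA, and SLA ranked 177 and TP53INP2 1091 for LGALS12.

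**Figure D4:**
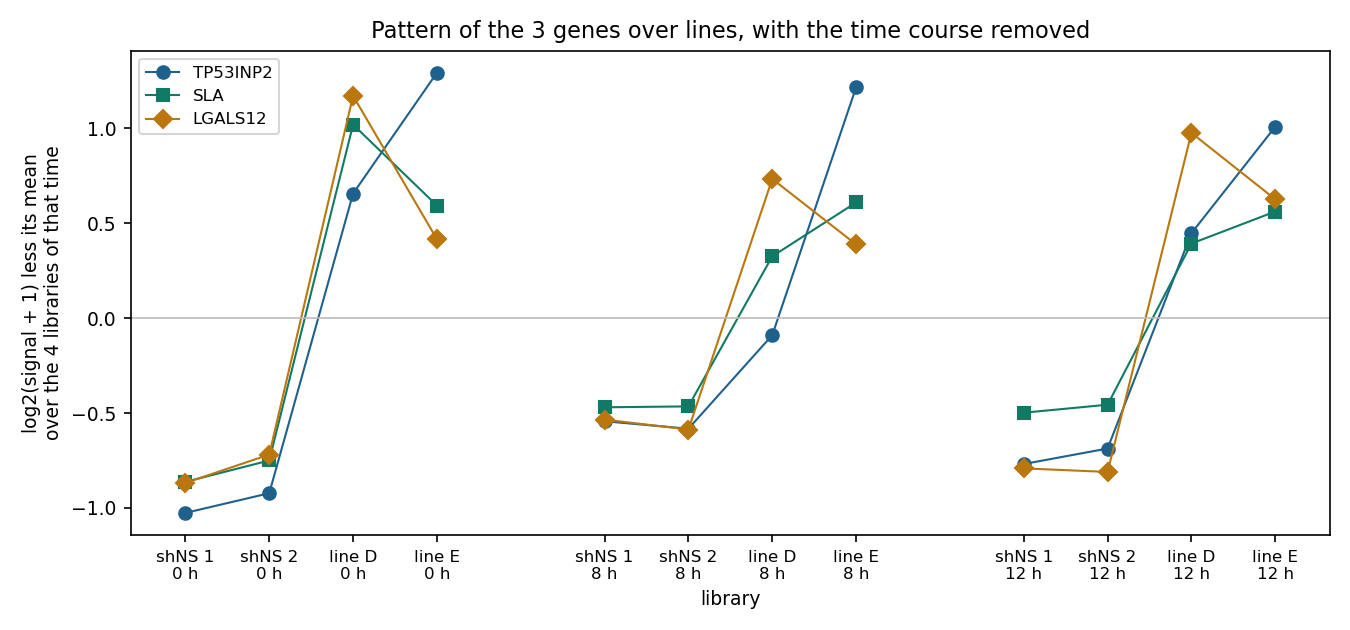
Log2(signal + 1) of each gene less its mean over the 4 libraries of the same time, in all 12 libraries. All control libraries lie below 0, and the lines of TP53INP2 and LGALS12 cross between line D and line E at each time.

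The 5 genes most like TP53INP2 by this measure were DCSTAMP (r = 0.989), RNASE3 (0.989), LIMK1 (0.988), SRGN (0.985) and ELANE (0.985). DCSTAMP takes part in the fusion of osteoclast precursors, SRGN encodes the granule proteoglycan serglycin, LIMK1 a kinase that phosphorylates cofilin, and RNASE3 and ELANE granule proteins of myeloid cells. RNASE3 shows the shared pattern, with 86.3 and 82.6 at 0 h in the control libraries, then 156.9 for D and 233 for E. For SLA the list was LINC00094 (0.992), CCDC51 (0.987), SLC25A20 (0.979), LIMA1 (0.979) and SLC35B2 (0.979). For LGALS12 it was ESRRA (0.993), an orphan nuclear receptor, CHPF (0.992), SIGLEC14 (0.990), a sialic acid receptor of myeloid cells, AIMP2 (0.989) and TIMM23 (0.989).

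ESRRA had the same order of lines as LGALS12, at 10.4 and 11.4 at 0 h in the control libraries, then 30.1 for D and 22.2 for E. Without removal of the time course the most alike genes were ZNF385A (0.983), SIRPB2 (0.977) and SIRPB1 (0.973) for TP53INP2, where the median gene had 0.739. They were AMACR (0.994), CPTP (0.993) and CXorf21 (0.993) for SLA, with a median of 0.882, and ESRRA (0.996), SIGLEC14 (0.996) and SSSCA1 (0.995) for LGALS12, with a median of 0.865. These correlations describe libraries that share lines and times, and they carry no test.

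TP53INP2 (ENSG00000078804.12) lies on chromosome 20 at 34704290 to 34713439 on the plus strand of GRCh38, inside the span of NCOA6, which is on the minus strand. NCOA6, a coactivator of nuclear receptors, had a signal at 0 h of 49.3 and 44.1 in the control libraries, then 37.8 for D and 45.1 for E, and its knockdown difference was -0.17 (SE 0.21, limma adjusted p = 0.668). The kit keeps the strand, and the sources used here do not say whether the counting used it. LGALS12 (ENSG00000133317.14) lies on chromosome 11 at 63506084 to 63516774 on the plus strand.

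SLA (ENSG00000155926.13) lies on chromosome 8 at 133036724 to 133103054 on the minus strand, within the span of the thyroglobulin gene TG on the plus strand, which was not among the measured genes. The nearest measured genes beside the 3 members, other than NCOA6, were ACSS2 for TP53INP2, PHF20L1 and NDRG1 for SLA, and SLC3A2 and ATL3 for LGALS12. Their log2 differences at 0 h were 0.04, 0.32, -1.29, 0.34 and 0.15, and none was called by limma. Across times NDRG1, known as a gene raised by hypoxia, was lower in knockdown cells by a difference of -1.44 (limma adjusted p = 0.000942), opposite in direction to its neighbour SLA. That p-value treats the 3 times of a line as independent, which they are not. No value with 1 mean per line is given here for NDRG1.

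The pathways of the 3 genes were described from lists of other genes, by knockdown minus control. At 0 h limma called 1.33% of all genes higher and 0.136% lower, and the median of all genes was 0.23. This split of 127 higher and 13 lower turned to 9 higher and 26 lower after median-of-ratios scaling, which moved the median to -0.01. With 0.1 added in place of 1 it was 16 higher and 2 lower (0.168% and 0.0210%). Loss of a call at 0 h was thus common over all genes. No share of all genes is given here for the fits with 1 library left out. At an unadjusted p under 0.05, 20.5% of all genes were higher and 1.65% lower, the background for the unadjusted counts of the lists. The 6 list genes called at 0 h and the 28 called across times kept their sign under both other scalings. Of 43 measured genes of the autophagy machinery 1 was called higher and 0 lower, with a median of 0.30 (12 and 0 at an unadjusted p under 0.05). The called gene was ATG101, a subunit of the ULK1 complex that starts autophagosome formation, at 1.08 (SE 0.21, limma adjusted p = 0.0369). This call was lost with 0.1 added, with median-of-ratios scaling and in 7 of 12 fits with 1 library left out. The lysosomal membrane protein LAMP1 stood at 0.75 and the cargo receptor SQSTM1 at 0.73, and neither passed the threshold.

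Of 34 measured genes of Src-family kinase signalling, 4 were called higher and 0 lower, with a median of 0.27 (8 and 1 at an unadjusted p under 0.05). TYROBP (1.30, limma adjusted p = 0.0291) and FCER1G (1.04, adjusted p = 0.0399) encode adaptors whose tyrosines are phosphorylated by these kinases. SH2B3 (0.99, limma adjusted p = 0.0383) encodes an inhibitory adaptor, and SLA2 (0.97, adjusted p = 0.0469) encodes the adaptor most closely related to SLA. GAB2, a docking protein, stood at -0.87 and LCP2 at 0.73 without passing. All 4 calls were lost at 0 h when 0.1 in place of 1 was added to the signal. They were also lost with median-of-ratios scaling, and in 7 of 12 fits with 1 library left out. Of all genes 16 were called higher with 0.1 added and 9 after median-of-ratios scaling.

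Of 6 measured galectins other than LGALS12 none was called at 0 h by limma, and 2 were higher at an unadjusted p under 0.05. LGALS2 had a difference of 1.03 with a limma adjusted p of 0.0704. LGALS9 stood at 0.59, and the median was 0.24. Of 21 measured lipid droplet and adipogenic genes 0 were called higher and 1 lower, with a median of 0.40 (4 and 2 at an unadjusted p under 0.05). The lower gene was HILPDA, an inhibitor of lipolysis that hypoxia raises, at -0.89 (limma adjusted p = 0.0461). PLIN2, which coats lipid droplets, stood at -1.02 and AGPAT2, an enzyme of triglyceride synthesis, at 0.86, both short of the threshold. The call for HILPDA was lost with 0.1 added, with median-of-ratios scaling and with rescaling to the spike-ins. It was also lost without the trend and in 7 of 12 fits with 1 library left out. Of all genes 2 were called lower with 0.1 added, 26 after median-of-ratios scaling and 11 after rescaling to the spike-ins.

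Across times, where 11.9% of all genes were called higher and 9.14% lower and the median was 0.02, the lists split in both directions. After median-of-ratios scaling these shares were 19.4% and 19.1%, and with a correlation within lines estimated at 0.251 they were 5.45% and 4.19%. Of the autophagy genes 4 were higher and 5 lower with a median of 0.04. They were 10 and 10 after median-of-ratios scaling, and 3 and 1 with the estimated correlation within lines. The higher ones included ATG101 (0.84), the phosphoinositide-binding WIPI1 (0.66), SQSTM1 (0.58) and the lipid transfer protein ATG2A (0.51), and the lower ones included EPG5 (-0.69), a tether of autophagosome to lysosome, and the cargo receptor TAX1BP1 (-0.67). Of the Src-family signalling genes 7 were higher and 3 lower with a median of 0.12, or 6 and 1 with the estimated correlation, among them FCER1G (1.04), TYROBP (1.04), SH2B3 (0.91), the phosphatase PTPN6 (0.65), LCP2 (0.63) and GAB2 (-0.76).

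LGALS2 was the only measured galectin called across times, at 0.92 (limma adjusted p = 0.000496). Of the lipid droplet and adipogenic genes 4 were higher and 4 lower with a median of 0.12. With the estimated correlation within lines 0 were higher and 3 lower. The calls without it included PLIN2 (-0.87), the adipogenic receptor PPARG (-0.77), HILPDA (-0.69) and MGLL (-0.49) on the lower side, and AGPAT2 (0.52) and DGAT2 (0.51), another triglyceride enzyme, on the higher side. Lines measured at 3 times are not independent. With 1 mean per line 2.72% of all genes were called higher and 2.42% lower. The calls were then 1 higher and 0 lower for autophagy and 4 and 1 for Src-family signalling. They were 1 and 0 for galectins, and 0 and 2 for the lipid list.

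The labelled myeloid identity was checked on 16 markers, of which 9 were among the measured genes, CD33, CD68, LYZ, ITGAM, CD4, ELANE, AZU1, SPI1 and FCN1. Their summed signal at 0 h was 1738 and 1770 in the control libraries and between 3066 and 3994 in the knockdown libraries. Of 5 megakaryocyte markers 1 was measured, GP1BA, at 4.39 to 6.11 in control and 3.14 to 7.22 in knockdown cells. None of the 6 adipocyte, 8 erythroid or 5 epithelial markers was among the measured genes. The myeloid sum thus moved with the 3 genes, although its markers did not rise alike, and its part in their difference was not tested. Much of that sum was ELANE, one of the genes most like TP53INP2, at 686 and 701 in the control libraries, then 1724 for D and 2086 for E. The other 8 markers summed to 1084 and 1037 in control, 1343 in D and 1909 in E. From control to knockdown the mean at 0 h went from 218 to 229 for CD4, 33.4 to 34.0 for FCN1 and 420 to 674 for AZU1. The arms overlapped for these markers. It went from 67.5 to 85.4 for CD33, 111 to 131 for SPI1, 156 to 347 for CD68, 48.7 to 108 for LYZ and 5.09 to 16.8 for ITGAM. The median gene had a ratio of 1.19. In bulk RNA a change in the share of cells expressing a gene and a change in RNA per cell cannot be told apart.

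The total gene signal per library was 826000 to 953211 at 0 h, 390103 to 580217 at 8 h and 143765 to 193639 at 12 h, while the median of 46 spike-in transcripts stayed between 29.9 and 33.1. Since the signal appears to be scaled to these spike-ins, their steady median is no separate check on the falling totals. Because the values are not counts, the read depth behind them is unknown, and intervals for counting error could not be computed.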

How the data were processed

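Poly(A) RNA was measured in 12 libraries. Per the submitters' processing notes the tools included STAR and RSEM and the build was GRCh38, and the sources used here give no versions or settings. The deposited values are a normalised signal per gene symbol, made by the authors. They appear to be scaled to the ERCC spike-ins, although the labels record no such step, and 0 columns were without a sample. The letters D and E appear in the column names of the knockdown libraries.

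Log2(signal + 1) of all 9529 genes, each with a mean of at least 1, was fitted by limma-trend with empirical Bayes (limma 3.58.1, R 4.3.3). The threshold for a call was an adjusted p of 0.05 by Benjamini-Hochberg. Group means of all 6 groups gave the 0 h, time and late comparisons, a model of time and arm the comparison across times, and a model of time, shNS, line D and line E the line comparison. The models were tested on simulated data. Of the gene symbols 9144 were found in GENCODE release 29, and each gene was described by 1 transcript.

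The members and lists were chosen with earlier results of these data known. The text names the members, ALKBH5, the 5 and 3 genes most like each member, the nearest measured neighbours and, per list and comparison, all called genes up to 6 (the 6 largest where more) with at most 2 uncalled. RNASE3 and ESRRA, whose signal is printed, were picked after their values were seen. Alternatives were a pseudocount of 0.1, a mean of at least 5, no filter, median-of-ratios scaling, rescaling to the ERCC mean, no trend, a replicate block, line means and leaving out each library. The result of 1 marker list is not reported here.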

Additional observations from a re-analysis of the deposited data

Results flagged for a closer look

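The 2 knockdown lines differed from each other for 2 of the 3 genes, in opposite directions. TP53INP2 had its lower level in line D (log2 difference -0.83, SE 0.18, limma adjusted p = 7.91e-05), with line D below line E at 3 of 3 times. LGALS12 was higher in line D (0.48, SE 0.19, limma adjusted p = 0.0340), again at 3 of 3 times. Both SEs come from the trend over all genes and not from the spread of each gene. Residual ALKBH5 signal in D and E was 25.4 and 21.2 at 0 h, and 1.52 and 4.29 at 8 h, and its part in these differences was not tested. The sources used here do not say which hairpin each line carries.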

How the results depend on the processing

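Of 681 recomputed values, 559 stayed the same, 101 moved, 9 no longer passed and 12 changed sign. A tested value stayed the same if it kept its sign and call, and a count if it stayed within 1.5 times. An untested knockdown difference stayed the same if it kept its sign and shifted by less than the combined SD of both arms. Genes with a small SD therefore moved at smaller shifts. Median-of-ratios scaling, which removes the general fall, gave TP53INP2 0.18 (8 h minus 0 h), 0.38 (12 h minus 0 h) and 0.20 (12 h minus 8 h), and for 12 h minus 8 h SLA 0.12 and LGALS12 -0.10. It moved the untested knockdown difference of SLA to 1.28 at 0 h, 1.15 at 8 h, 1.34 at 12 h and 1.26 across times, and that of LGALS12 to 1.39 at 8 h and 1.86 at 12 h. Adding 0.1 in place of 1 gave SLA 1.24 at 8 h, 1.70 at 12 h and 1.53 across times, LGALS12 2.09 and TP53INP2 1.89 at 12 h. All of these knockdown differences keep their sign. Of the 5 genes most like each member, Spearman's rho left 1 (TP53INP2), 1 (SLA) and 0 (LGALS12) among the 5, and median-of-ratios scaling left 0, 1 and 2.

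Line D minus line E stayed called for TP53INP2 under every alternative run and was called for SLA under none, where it ranged from -0.30 to 0.16 with 1 library left out. The late difference between arms also changed sign, for SLA at -0.030 with rescaling to the ERCC mean and from -0.12 to 0.16 with 1 library left out, and for TP53INP2 from -0.32 to 0.98. None of these was called. For LGALS12, line D minus line E ranged from 0.34 to 0.63 with 1 library left out. That call was lost without either shNS library of 12 h, shNS replicate 1 of 0 h or replicate 2 of 8 h. It was also lost without either line at 0 h, line D at 12 h or line E at 8 h. With 1 library left out, TP53INP2 knockdown minus control at 8 h ranged from 0.47 to 1.78.

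List counts at 0 h fell to 0 higher for autophagy and for Src-family signalling with 0.1 added or median-of-ratios scaling, and Src-family to 2 with rescaling to the ERCC mean. The lipid list fell to 0 lower under all 3 and without trend. Over all genes the calls at 0 h were 16 higher and 2 lower with 0.1 added. They were 9 and 26 with median-of-ratios scaling, and 83 and 11 with rescaling to the ERCC mean. With 1 library left out, higher counts at 0 h ran over 0 to 3 (autophagy), 0 to 5 (Src-family), 0 to 1 (galectins) and 0 to 3 (lipid), and lower counts over 0 to 1 (Src-family) and 0 to 2 (lipid). Across times, median-of-ratios scaling gave autophagy 10 higher and 10 lower and Src-family 6 lower. Of all genes 19.4% were then higher and 19.1% lower. ERCC rescaling gave autophagy 7 higher, where 15.6% of all genes were higher. Line means gave autophagy 1 higher and 0 lower, Src-family 4 and 1, and lipid 0 and 2. In that fit 2.72% of all genes were higher and 2.42% lower. A correlation within lines of 0.251 gave 1 lower for autophagy and Src-family and 0 higher for lipid. With it 5.45% of all genes were higher and 4.19% lower. A mean of at least 5 left 0 galectins higher. With 1 library left out, counts across times ran over 3 to 7 higher and 1 to 4 lower (autophagy), 2 to 6 lower (Src-family), 1 to 2 higher and 0 to 1 lower (galectins) and 1 to 7 higher (lipid). The cause of these changes was not tested.

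The replicate block left every time and late call of the 3 genes as it was, with the late difference of LGALS12 at 0.48 (limma adjusted p = 0.437). Deviations of same-numbered shNS libraries correlated at 0.271, 0.0651 and 0.138 between pairs of times, so the shNS numbers are not shown to pair, and the knockdown lines correlated at 0.777, 0.657 and 0.900. The filter on low means removed no gene, so leaving it out changed nothing. With 2 libraries per group and read depth unknown, small differences between arms are below what these data can resolve.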
